A study of Mus musculus with 12 samples.

Results

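The genes of the mitochondrial ribosomal proteins were taken as every gene symbol of the count files that consists of Mrpl or Mrps, a number and at most 1 further letter. This gave 77 genes of 24421, and all 77 had enough reads to be tested among 13583 genes. Bulk RNA sequencing was done on pancreatic islets, the small organs that hold the endocrine cells, from mice kept for 6 weeks on a high-fat diet (HFD). The tested libraries, BKO-1 to BKO-6, came from Il22ra1βKO mice, in which the β cells, the insulin-producing cells, lack interleukin-22 receptor subunit alpha 1. The control libraries, Cre-1 to Cre-6, came from Ins2Cre mice, which carry Cre recombinase under an insulin promoter, so that the controls carry Cre and ate the same diet. The comparison addresses what the islet transcriptome looks like when β cells lack the receptor. The labels name no Cre driver for Il22ra1βKO mice and give no age, sex or strain background, nor do they say whether the libraries are from separate animals. The p-values therefore cover the spread among these libraries only.

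Mitochondria keep their own ribosome, which translates the few messages of the mitochondrial genome, nearly all of them for core subunits of the respiratory chain. Its RNA is made inside the organelle, but its proteins are encoded in the nucleus, made in the cytosol and imported, so the large and small subunits are built from the products of genes scattered over the chromosomes. Some of these proteins have counterparts in bacterial ribosomes and others are found only in mitochondria. In β cells, mitochondrial ATP production couples glucose metabolism to insulin release. By their known place in the particle, 50 of the 77 genes belong to the large subunit, 30 with a bacterial counterpart and 20 specific to mitochondria. Another 26 belong to the small subunit, 16 with a bacterial counterpart and 10 specific to mitochondria. The remaining gene, Mrps36, has the name of the family, but its product is known as a subunit of the α-ketoglutarate dehydrogenase complex. Mrpl58 stands in the files under its older symbol Ict1, which the name pattern leaves out. It had 30.5 ± 3.07 CPM in BKO and 29.9 ± 1.98 CPM in Cre (n = 6 each, SD), a log2 fold change of 0.028 ± 0.073 (SE). CPM values are reads scaled to a common library total, with TMM normalisation.

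For none of the 77 genes did the difference between BKO and Cre islets pass the test. With edgeR, 0 of 77 passed an adjusted p of 0.05, and the percentage of all tested genes that passed was also 0. At an unadjusted p under 0.05, again 0 of 77 members were counted, whereas 13.4% of all tested genes were, 8.70% higher in BKO and 4.66% lower. The number for all genes depended on the fit. It was 1815 here, 1160 with the acinar score as a covariate and 679 with 1 surrogate variable, with 0 members in each. DESeq2 likewise called 0 members, against 1.64% of all genes, and counted 0 members at an unadjusted p under 0.05, against 13.7% of all genes. With limma-voom, run with quality weights for the libraries, 0 members passed the adjusted test. In that fit 4 of 77 had an unadjusted p under 0.05, against 16.2% of all genes. The smallest unadjusted p of any member was 0.0543 (Mrpl52), with an edgeR adjusted p of 0.387. For every member the BKO and Cre libraries overlapped. Among all tested genes they did not overlap for only 0.508%, so 0 of 77 is near that share.

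The estimates were also narrow. Log2 fold changes of BKO over Cre ran from -0.12 to 0.18 over the members, that is from 0.917-fold to 1.14-fold, with a median of 0.026 beside 0.0078 for all tested genes. Positive values were seen in 42 members and negative values in 35, and 52.8% of all tested genes were positive. The middle of the distribution, from the lower to the upper quartile, spanned -0.037 to 0.072 for members and -0.067 to 0.10 for all genes, and 23.3% of all genes lay beyond the largest absolute value of any member. The edgeR 95% interval stayed inside a 1.25-fold change in either direction (0.32 on the log2 scale) for 71 of 77 members (92.2%), against 58.2% of all tested genes. Interval width and spread depend on read number. Members averaged 4.72 to 57.4 CPM each, and genes of like level were not compared separately. No member's interval excluded 0. The 6 that reached past 1.25-fold were those of Mrpl19, Mrpl33, Mrpl52, Mrps27 and Mrps31 on the higher side and of Mrps6 on the lower side. The widest bounds of any member were 0.733-fold for Mrps6 and 1.32-fold for Mrps31, so that changes beyond these sizes lay outside all 77 intervals.

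**Figure D1:**
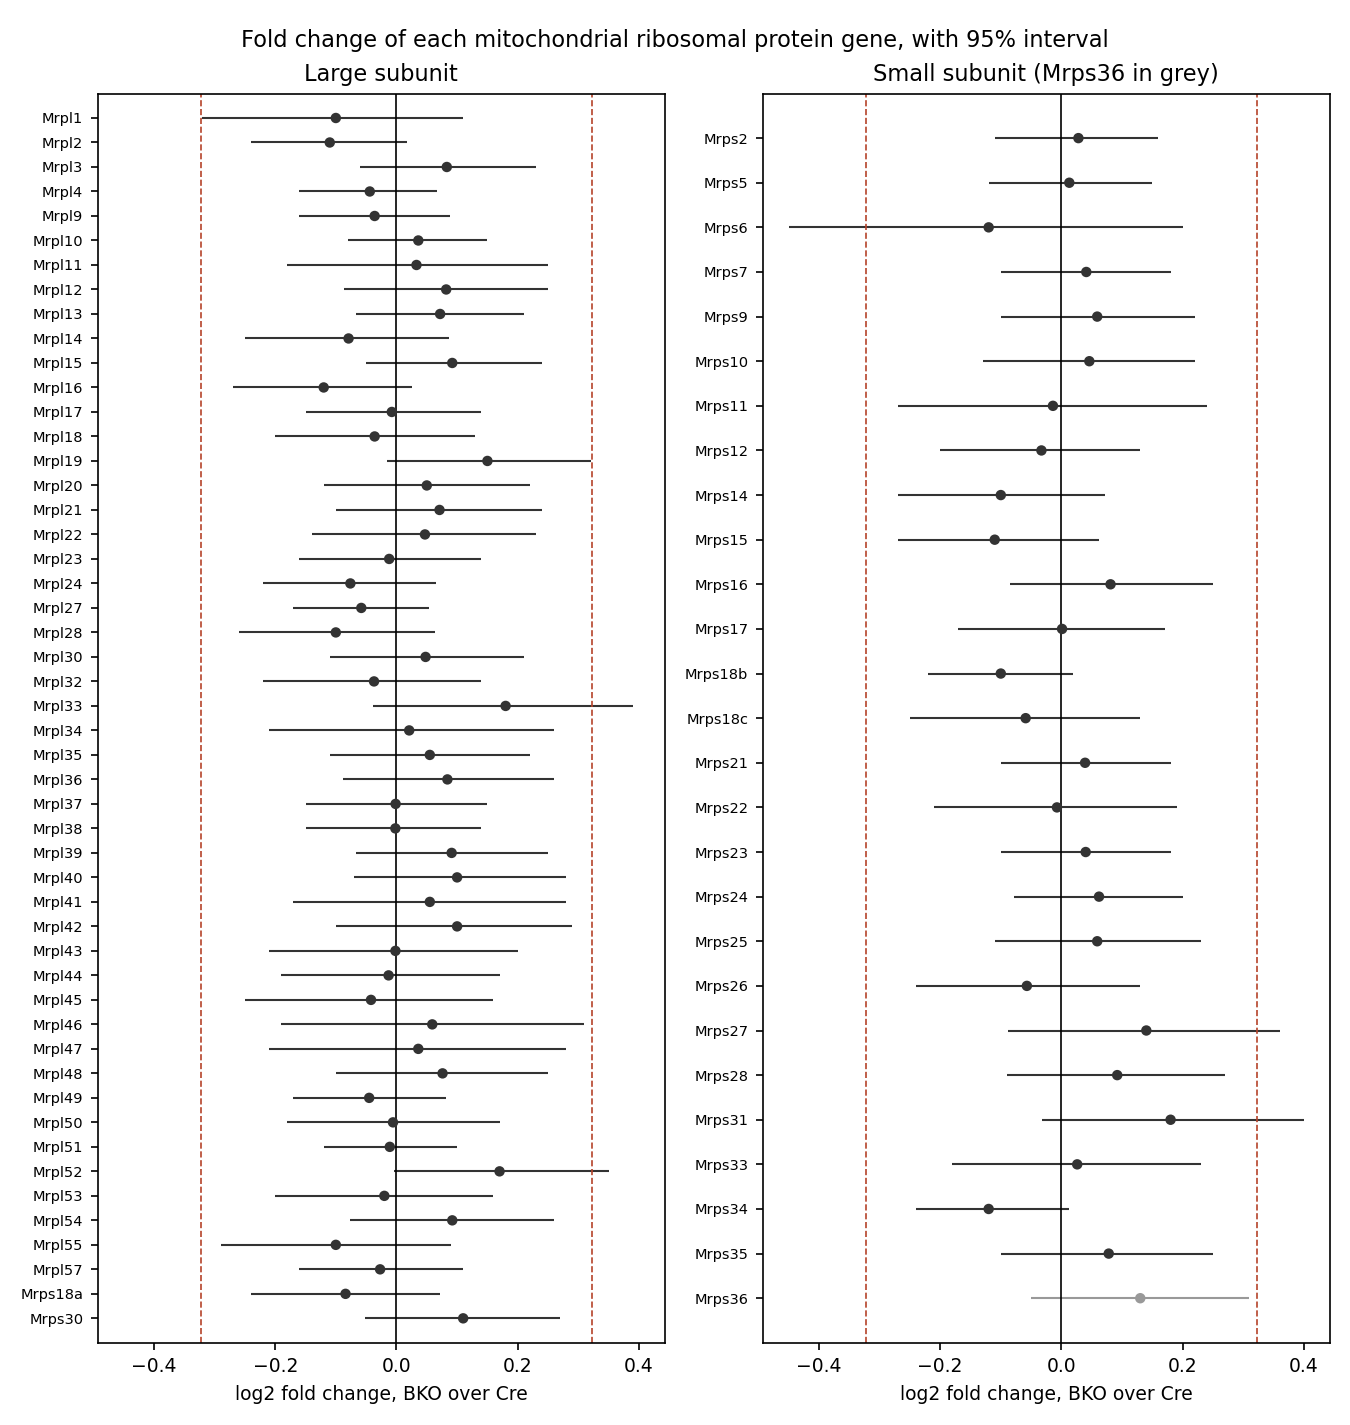
Log2 fold change (BKO over Cre, x axis) of each of the 77 genes, with large subunit genes on the left and small subunit genes and Mrps36 on the right. Points are edgeR estimates, bars are 95% intervals, and dashed lines mark a 1.25-fold change; every bar crosses 0, and 71 of 77 lie between the dashed lines.

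**Figure D2:**
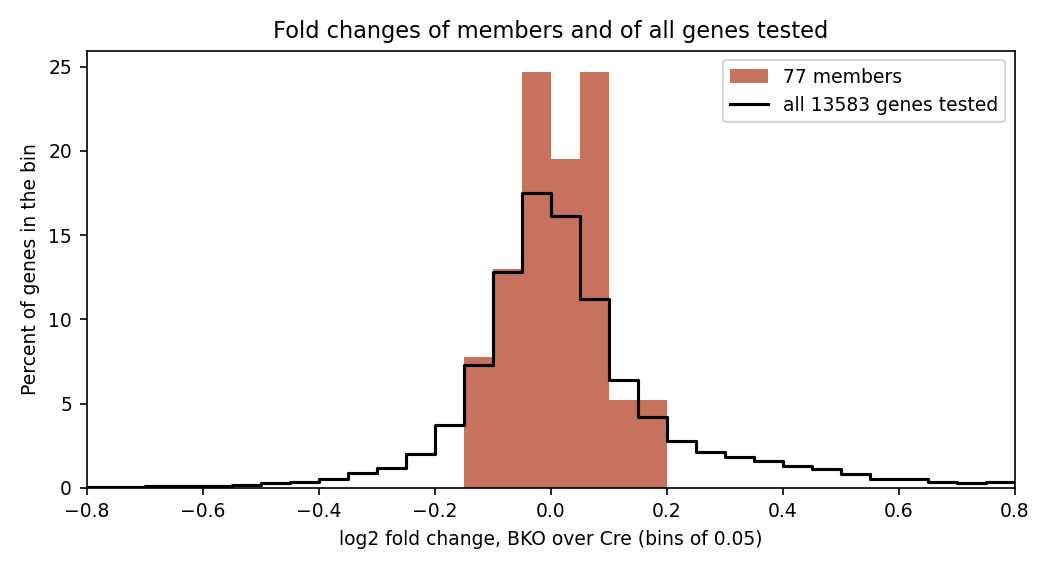
Distribution of log2 fold changes (BKO over Cre) for the 77 members (filled) and for all 13583 tested genes (line), as the percentage of genes in each bin of 0.05. Members stay between -0.12 and 0.18, while the line has tails on both sides.

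In the large subunit, 25 genes had positive and 25 negative log2 fold changes, with a median of 0.0096 (-0.00062 with RLE scaling). The 30 genes with a bacterial counterpart split into 16 positive and 14 negative (median 0.027), and the 20 specific to mitochondria into 9 and 11 (median -0.0015). Mrpl52, a mitochondrion-specific protein of the large subunit, had a lowest, median and highest value of 25.9, 28.4 and 35.0 CPM in BKO and of 23.0, 27.0 and 29.4 CPM in Cre. Its ranges overlapped, with 5 of 6 BKO libraries above the Cre mean, and its log2 fold change of 0.17 ± 0.084 had an edgeR adjusted p of 0.387. The estimate was 0.067 with 1 surrogate variable in the fit, 0.11 without BKO-5 and 0.21 without Cre-5. Mrpl33, one of the smallest ribosomal proteins in bacteria, had 18, 22.8 and 25.2 CPM in BKO and 17.0, 18.9 and 24.5 CPM in Cre. The ranges overlapped over most of their length, though the Cre libraries other than Cre-1 had 20.1 CPM or less. The log2 fold change was 0.18 ± 0.10 (edgeR adjusted p = 0.492). It was 0.24 without Cre-1 and 0.13 with 1 surrogate variable. Mrpl19, whose bacterial counterpart sits where the subunits meet, had 17.8, 20.9 and 23.8 CPM in BKO and 17.4, 18.3 and 20.8 CPM in Cre. The BKO median was close to the highest Cre value, the ranges overlapped, and the log2 fold change was 0.15 ± 0.080 (edgeR adjusted p = 0.430). Mrpl15 and Mrps30, the second a large subunit protein in spite of its name, had log2 fold changes of 0.092 ± 0.068 and 0.11 ± 0.078.

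The most negative estimates of the large subunit were those of Mrpl16 and Mrpl2, whose bacterial counterparts lie beside the centre where peptide bonds are made. Mrpl16 had 18.9, 20.5 and 21.3 CPM (lowest, median, highest) in BKO and 19.5, 22.8 and 23.7 CPM in Cre. No BKO library was above the Cre mean, but the ranges overlapped, and the log2 fold change of -0.12 ± 0.071 had an edgeR adjusted p of 0.487. Mrpl2 had 31.6, 33.8 and 37.3 CPM in BKO and 34.3, 37.2 and 40.4 CPM in Cre. Here 1 of 6 BKO libraries was above the Cre mean, and the log2 fold change was -0.11 ± 0.061 (edgeR adjusted p = 0.461). Mrpl28 had a log2 fold change of -0.10 ± 0.077.

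Smaller functional groups within the large subunit were also near 0. Mrpl10, Mrpl11 and Mrpl12 form the stalk that recruits the GTPases of translation. Their log2 fold changes were 3 of 3 positive, from 0.033 to 0.082. For Mrpl12, which is also known to bind the mitochondrial RNA polymerase in human cells, BKO libraries had 28.6, 33.4 and 39.6 CPM (lowest, median, highest), against 28.0, 32.2 and 35.1 CPM in Cre libraries. These ranges overlapped over most of their length, and the edgeR adjusted p was 0.729. Its log2 fold change of 0.082 was 0.017 without BKO-5 and 0.12 without BKO-3. Of the 6 genes for proteins around the exit of the peptide tunnel (Mrpl17, Mrpl22, Mrpl23, Mrpl24, Mrpl45 and Mrpl47), 2 were positive and 4 negative, between -0.076 and 0.047. Among them is Mrpl45, which anchors the human mitochondrial ribosome at the inner membrane.

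The small subunit had 16 genes with positive and 10 with negative log2 fold changes, with a median of 0.027. Genes with a bacterial counterpart split into 10 positive and 6 negative (median 0.020), and those specific to mitochondria into 6 and 4 (median 0.033). Mrps31, first described as an islet mitochondrial antigen under the name imogen, had 15.3, 18 and 21.5 CPM (lowest, median, highest) in BKO and 13.7, 15.3 and 19.9 CPM in Cre. The ranges overlapped, with 5 of 6 BKO libraries above the Cre mean. The highest Cre value was that of Cre-1, and the other Cre libraries had 16.4 CPM or less. The log2 fold change of 0.18 ± 0.10 had an edgeR adjusted p of 0.474. It was 0.24 without Cre-1 and 0.13 without BKO-3. Mrps27, a pentatricopeptide repeat protein, had 9.74, 10.9 and 12.7 CPM in BKO and 8.42, 10.2 and 11.7 CPM in Cre, with a log2 fold change of 0.14 ± 0.11 (edgeR adjusted p = 0.641). It was 0.077 without Cre-3, 0.078 without Cre-1 and 0.082 without BKO-6, but 0.18 without Cre-2.

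Mrps34, a mitochondrion-specific protein needed for a stable small subunit in mice, had the smallest p among the negative members of that subunit. It had 40.9, 46.6 and 49.2 CPM (lowest, median, highest) in BKO and 44.9, 50.5 and 53.2 CPM in Cre. No BKO library was above the Cre mean, yet the ranges overlapped, and the log2 fold change of -0.12 ± 0.061 had an edgeR adjusted p of 0.432. With 1 surrogate variable it was -0.058, and without Cre-1 it was -0.16. Over its exons 77.8% of the length is shared with other genes, and the sources used here do not give the strand setting of the counting, so its reads cannot be fully told apart from theirs. Mrps15 and Mrps14, both with bacterial counterparts, had -0.11 ± 0.080 and -0.10 ± 0.081. Mrps6 had the fewest reads of all members, 2.84, 4.77 and 5.20 CPM in BKO and 4.21, 4.92 and 5.74 CPM in Cre, and the widest interval, from -0.45 to 0.20 on the log2 scale.

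Vertebrates have 3 paralogues of the bacterial ribosomal protein S18 family, of which Mrps18a is placed in the large subunit and Mrps18b and Mrps18c in the small one. In spite of this relation, Mrps18a and Mrps18b were counted above as specific to mitochondria, and only Mrps18c as having a bacterial counterpart. All 3 had negative log2 fold changes, from -0.10 to -0.059, and none passed the test. Mrps18b had 34.1, 38.2 and 40.3 CPM (lowest, median, highest) in BKO and 38.1, 40.0 and 43.3 CPM in Cre, with 1 of 6 BKO libraries above the Cre mean (edgeR adjusted p = 0.483). Mrps18a had 29.2, 32.5 and 35.9 CPM in BKO and 30.6, 34.1 and 39.0 CPM in Cre (edgeR adjusted p = 0.691). Mrps18c had 18.6, 22.0 and 26.3 CPM in BKO and 19.5, 23.5 and 25.6 CPM in Cre (edgeR adjusted p = 0.851). In each of the 3 the ranges of BKO and Cre overlapped. Mrps36, the dehydrogenase subunit, had 15.0, 17.3 and 20.3 CPM in BKO and 14.8, 15.9 and 17.5 CPM in Cre, with a log2 fold change of 0.13 ± 0.087 (edgeR adjusted p = 0.564).

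Summed over a library, the large subunit genes took 1479 ± 61.4 CPM in BKO and 1465 ± 50.9 CPM in Cre (n = 6 each, SD). The small subunit genes took 714 ± 29.5 CPM in BKO and 713 ± 23.8 CPM in Cre. The ratio of large to small subunit sums was 2.07 ± 0.04 in BKO and 2.06 ± 0.03 in Cre, with a range of 2.00 to 2.11 in BKO and of 2.00 to 2.09 in Cre. For all 77 genes together, the lowest, median and highest sums were 2110, 2199 and 2347 CPM in BKO and 2093, 2209 and 2303 CPM in Cre, so the group means differed by less than the SD within either group. The genes took 0.212% to 0.233% of all gene reads in BKO and 0.211% to 0.234% in Cre. The spread within each group was larger than the difference between the means: 60 of 77 members were above their own median over the 12 libraries in BKO-3 and 25 in BKO-2, and 52 were above it in Cre-1 and 19 in Cre-3. The median coefficient of variation of a member was 9.45% in BKO and 8.58% in Cre, beside 11.5% in BKO and 9.37% in Cre for all tested genes.

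**Figure D3:**
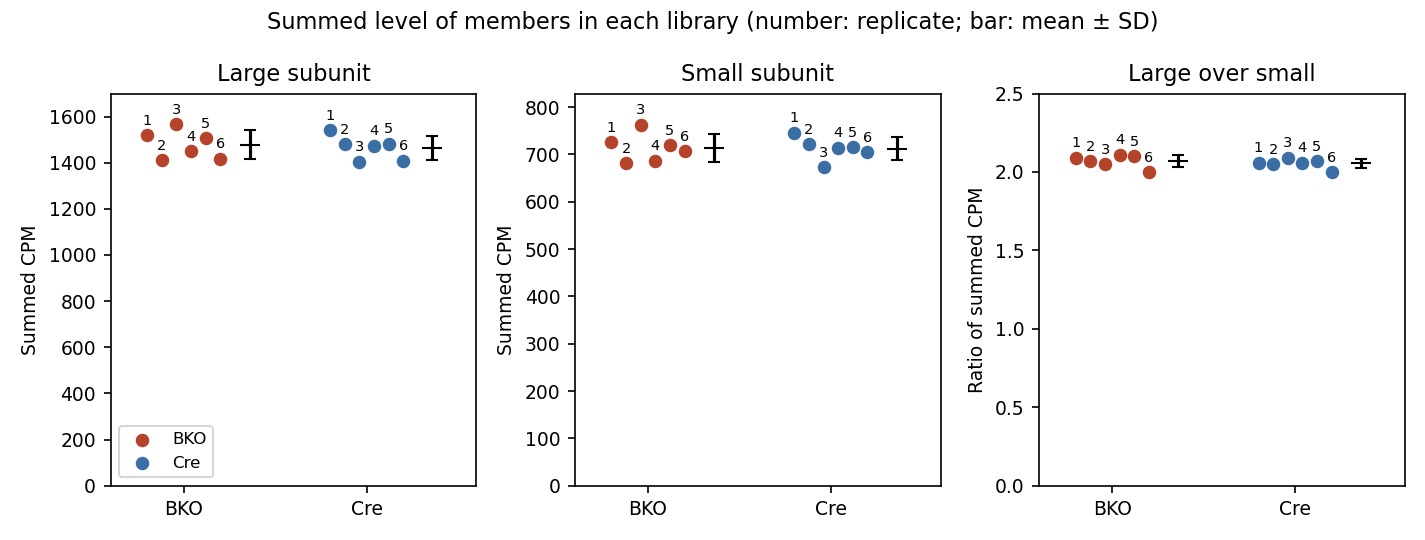
Summed level of the large subunit genes, of the small subunit genes and the ratio of these sums in each library, with BKO left of Cre. Numbers are replicate numbers and bars are the mean ± SD (n = 6 each); BKO-3 has the highest sums of BKO, Cre-1 those of Cre, and the ratio stays between 2.00 and 2.11.

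The libraries were those of islets, with Ins2 at 54446 to 93700 CPM in BKO and 65067 to 86412 CPM in Cre. Gene reads numbered 10356093 to 11902217 in BKO and 11444273 to 12397139 in Cre, and each member had 31 to 760 reads in a library. Il22ra1 itself had 1 to 3 reads in BKO libraries and 1 to 5 in Cre libraries, too few to check the deletion. Marker genes of several cell types went with genotype in part, though none passed the adjusted test. At an unadjusted p under 0.05, 11 of 12 endothelial markers, 7 of 11 stellate and mesenchymal markers, 7 of 10 markers of other endocrine cells and 4 of 8 duct markers were higher in BKO, and 5 of 12 β-cell markers were lower. Of all tested genes, 8.70% were higher and 4.66% lower at that p. Summed levels were 602 to 863 CPM in BKO and 475 to 682 CPM in Cre for endothelial markers, 173 to 260 CPM in BKO and 126 to 224 CPM in Cre for stellate and mesenchymal markers, and 17991 to 36044 CPM in BKO and 13581 to 21510 CPM in Cre for other endocrine cells. They were 1636 to 2807 CPM in BKO and 1925 to 2499 CPM in Cre for duct markers, and 98627 to 157048 CPM in BKO and 122149 to 153484 CPM in Cre for β-cell markers. Acinar markers were 1475 to 5310 CPM in BKO and 239 to 6762 CPM in Cre, with 0 of 11 tested past that p and the defining marker Ptf1a at 0 reads in part of the libraries. All 11 tested acinar markers had positive log2 fold changes, from 0.40 to 0.68. Macrophage markers were 128 to 156 CPM in BKO and 136 to 176 CPM in Cre, with 1 of 9 tested higher and 3 lower. In whole islets, fewer cells of a type and less RNA per cell cannot be told apart. Since every cell type has mitochondrial ribosomes, the values above are averages over these cells, and the part of cell makeup in them was not tested beyond a fit with the acinar score as a covariate, in which 0 members were called.

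Levels of different genes were compared per length, as reads per kilobase of annotated exon at a common library total (FPKM). The members spanned 1.80 to 51.8 FPKM with a median of 13.1, and the medians were 13.4 for the large and 9.75 for the small subunit. Mrps21 was at the top with 52.5 ± 5.25 FPKM in BKO and 51.1 ± 2.79 FPKM in Cre, followed by Mrpl54 with 47.0 ± 5.88 FPKM in BKO and 44.1 ± 3.52 FPKM in Cre (n = 6 each, SD); in BKO these neighbours overlapped within their SD. Mrps12, a counterpart of the bacterial decoding-centre protein S12, had 36.9 ± 3.90 FPKM in BKO and 37.8 ± 3.32 FPKM in Cre. It did not stand apart from Mrpl27, next to the peptidyl transferase centre in bacteria, with 33.8 ± 1.07 FPKM in BKO and 35.2 ± 1.35 FPKM in Cre, or from Mrpl10 with 34.0 ± 1.80 FPKM in BKO and 33.2 ± 1.97 FPKM in Cre. At the bottom were Mrps35 with 1.85 ± 0.144 FPKM in BKO and 1.75 ± 0.137 FPKM in Cre and Mrpl47 with 2.66 ± 0.341 FPKM in BKO and 2.59 ± 0.385 FPKM in Cre.

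This order rests on the length used. With only the exons of transcripts linked to RefSeq, the median length of the 77 genes was 1280 bases in place of 2255. Mrps21 stayed at rank 1 with 77.8 FPKM over all 12 libraries. Mrps35 and Mrpl47 were at ranks 75 and 76, and Mrps25 was lowest at rank 77 (3.12 FPKM). Of the annotated exon length, 69.8% in Mrps25 and 24.2% in Mrpl47 is shared with other genes. With the strand setting of the counting not given, their levels may be understated. Mrpl10 moved to rank 20, against rank 5 with all exons. The subunit medians above use all exons and were not taken again with this length. Mrpl33 moved to rank 9 (43.4 FPKM), against rank 75 (3.01 ± 0.401 FPKM in BKO and 2.66 ± 0.369 FPKM in Cre) with all exons. Mrps10 moved to rank 38, against rank 73 (2.97 ± 0.101 FPKM in BKO and 2.88 ± 0.387 FPKM in Cre). The length cancels out of every comparison of BKO with Cre.

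**Figure D4:**
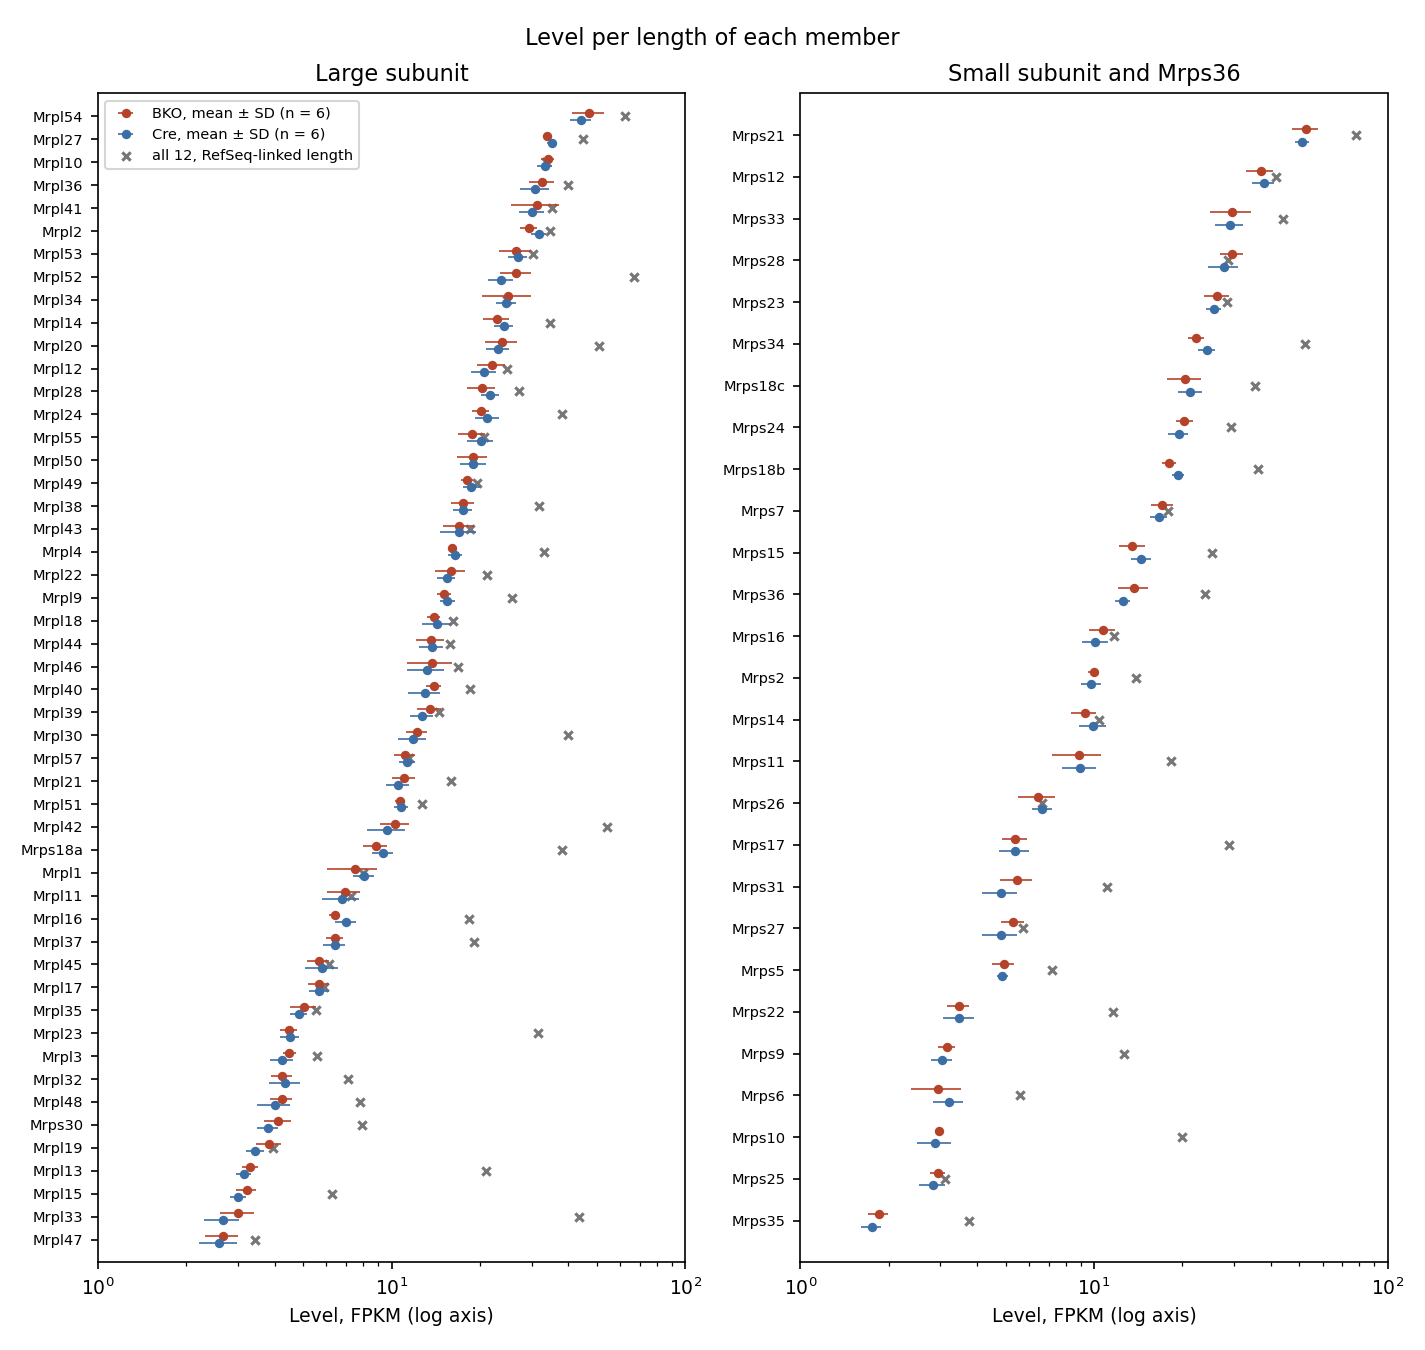
Level of each member in FPKM (log axis), large subunit on the left, small subunit and Mrps36 on the right, sorted by level. Points are means ± SD of 6 BKO and 6 Cre libraries with the length of all annotated exons, and crosses are the level over all 12 libraries with the length of RefSeq-linked transcripts; BKO and Cre lie side by side, while crosses such as those of Mrpl33 and Mrps10 are far to the right.

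The rest of the machinery was taken as gene lists from known biology and showed 0 genes past the adjusted edgeR test in either direction. Besides Mrpl58, given above, 5 mitoribosomal proteins outside the name pattern were listed (Dap3, Ptcd3, Aurkaip1, Chchd1 and Gadd45gip1). Of these 5, 2 were positive and 3 negative. Dap3, which binds GTP in the small subunit, had 48.1 ± 5.22 CPM in BKO and 47.4 ± 3.02 CPM in Cre (n = 6 each, SD). For 14 translation factors the split was 7 and 7 with a median log2 fold change of -0.013. Among them Oxa1l, which inserts the newly made proteins into the inner membrane, had 39.3, 44.2 and 47.8 CPM (lowest, median, highest) in BKO and 45.1, 48.3 and 51.4 CPM in Cre, with a log2 fold change of -0.13 ± 0.059 (edgeR adjusted p = 0.331). The 24 genes of ribosome assembly and rRNA modification split into 12 and 12 with a median of -0.0039, and 0 of them had an unadjusted p under 0.05.

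Of 17 mitochondrial aminoacyl-tRNA synthetases, which charge the tRNAs, 6 were positive and 11 negative (median -0.010). Yars2, the tyrosine enzyme, had 17.5 ± 1.07 CPM in BKO and 15.4 ± 1.12 CPM in Cre (edgeR adjusted p = 0.298). Of 21 genes for mitochondrial DNA upkeep, transcription and RNA processing, 10 were positive and 11 negative (median -0.00061). Fastkd1, an RNA-binding protein of the matrix, had a lowest, median and highest value of 8.79, 10.2 and 12.6 CPM in BKO and of 10.9, 13.5 and 15.4 CPM in Cre (log2 fold change -0.32 ± 0.11, edgeR adjusted p = 0.222), and Top1mt, the mitochondrial topoisomerase, had 3.64 ± 1.11 CPM in BKO and 2.39 ± 0.693 CPM in Cre (0.60 ± 0.25, edgeR adjusted p = 0.305). Of 11 nuclear regulators of mitochondrial genes, 9 were positive and 2 negative (median 0.059). Ppargc1a, the coactivator of mitochondrial biogenesis, had 3.95 ± 1.33 CPM in BKO and 2.80 ± 0.742 CPM in Cre (0.49 ± 0.23, edgeR adjusted p = 0.369), and the growth regulator Myc had 27.5 ± 6.45 CPM in BKO and 22.1 ± 3.47 CPM in Cre (0.31 ± 0.14, edgeR adjusted p = 0.359).

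Set beside the closest related families, the nuclear-encoded respiratory chain genes had 39 positive and 37 negative log2 fold changes among 76 tested of 82 (median 0.0019), with 0 at an unadjusted p under 0.05. The cytosolic ribosomal protein genes had 74 positive and 2 negative among 76 tested of 81 (median 0.11). Of these, 19 (25.0%) had an unadjusted p under 0.05, all higher in BKO, against 0 of 77 for the mitochondrial ones and 13.4% of all genes, and 0 passed the adjusted test. The difference between the families was not tested.

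The 77 genes lie on 17 chromosomes of the mouse genome (mm10, GENCODE annotation), with 10 on chromosome 11, 8 on chromosome 17 and 7 on chromosome 6. Mrpl52 spans chr14:54426909-54429756 on the plus strand, Mrps34 chr17:24895116-24897502 on the plus strand, Mrps21 chr3:95862634-95871519 on the minus strand and Mrpl12 chr11:120484613-120489065 on the plus strand. A head-to-head neighbour, that is a protein-coding gene on the opposite strand whose start lies within 1000 bases, was annotated for 33 members (42.9%), against 10.9% of all protein-coding genes. In 21 of the pairs the starts were within 200 bases, and the closest were those of Mrpl54 and Apba3, 26 bases apart. Mrpl46 and Mrps11, of the large and the small subunit, are each other's neighbour. Several neighbours have mitochondrial roles themselves: Mrpl36 is paired with Ndufs6 and Mrpl47 with Ndufb5, both complex I subunits, Mrpl43 with the helicase gene Peo1, and Mrps12 with Sars2, the mitochondrial serine enzyme.

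No neighbour passed the adjusted test either. Of 30 neighbours tested, 15 were positive and 15 negative, with a median log2 fold change of -0.00085 and a range of -0.27 to 0.14. Sars2 had 9.36 ± 1.18 CPM in BKO and 10.5 ± 1.20 CPM in Cre (n = 6 each, SD), while Mrps12 had a log2 fold change of -0.033. Tmem63b, the neighbour of Mrpl14, was the 1 neighbour with an unadjusted p under 0.05, with 69.2 ± 2.52 CPM in BKO and 77.4 ± 3.31 CPM in Cre and an edgeR adjusted p of 0.169. Exons of 32 members share bases with another gene, on the opposite strand for 27 of them. The shared part was over 50% of the exon length in Mrpl53 (88.0%), Mrps34 (77.8%) and Mrps25 (69.8%).

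Promoters are shown because the list of nuclear regulators holds Nrf1, Gabpa, Yy1, Esrra and Sp1, whose products are known to bind short motifs near the starts of mitochondrial genes. RefSeq promoter windows (GRCm38.p6, from 250 bases before to 50 after the start) were available for 68 members, with 74 windows in all. The searched motifs, on both strands, were GCGCA, any base and GCGC for NRF1, CCGGAAG for ETS factors such as GABP, AAGATGGC for YY1, AAGGTCA for oestrogen-related receptors, GGGCGG for SP factors, CCAAT and TATAAA. In the sequences below, written 5′ to 3′ on the strand of the gene, capitals mark the NRF1 motif in the first pair and the ETS motif in the other 4, each of them in the given or the reverse complement form. The stretches of Mrps21 and Mrpl27 hold bases of annotated exons and were kept to 30 bases, while the other stretches hold none.
Mrpl12, chr11:120484463-120484612, plus strand: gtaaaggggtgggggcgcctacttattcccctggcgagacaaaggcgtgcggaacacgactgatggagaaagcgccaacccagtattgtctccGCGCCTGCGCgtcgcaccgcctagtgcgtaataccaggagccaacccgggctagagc
Mrps21, chr3:95871586-95871615, minus strand: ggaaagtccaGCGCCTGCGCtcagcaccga
Mrpl52, chr14:54426759-54426908, plus strand: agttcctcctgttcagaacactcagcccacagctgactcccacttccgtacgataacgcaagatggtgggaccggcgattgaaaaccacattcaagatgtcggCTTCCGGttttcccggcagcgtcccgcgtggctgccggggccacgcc
Mrps18a, chr17:46110836-46110985, plus strand: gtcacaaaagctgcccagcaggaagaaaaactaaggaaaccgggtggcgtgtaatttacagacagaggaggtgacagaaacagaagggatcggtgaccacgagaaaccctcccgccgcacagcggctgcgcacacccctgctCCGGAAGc
Mrps27, chr13:99344706-99344785, plus strand: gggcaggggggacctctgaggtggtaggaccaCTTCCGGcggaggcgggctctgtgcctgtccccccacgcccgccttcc
Mrpl27, chr11:94653724-94653753, plus strand: tgtccgcaagacCCGGAAGtagatctatcc
Counted from the RefSeq start of each window, which is not the GENCODE start of the gene for Mrpl12, Mrps21, Mrps18a and Mrpl27, the motif begins at -81 in Mrpl12, -91 in Mrps21, -47 in Mrpl52, -26 in Mrps18a, -48 in Mrps27 and -55 in Mrpl27. The genes span positive and negative estimates, from 0.17 for Mrpl52 to -0.084 for Mrps18a.

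An ETS motif was present in 33.8% of the member windows, against 16.1% of the windows of tested genes and 8.86% of all windows. For NRF1 the shares were 17.6% of member windows, 9.27% of those of tested genes and 4.6% of all, and for YY1 16.2%, 4.12% and 2.75% in the same order. They were 5.41% (4 windows), 3.19% and 4.72% for oestrogen-related receptors, and 40.5%, 36.8% and 37.4% for CCAAT. The SP motif was in 52.7% of member windows and 61.2% of those of tested genes, and TATAAA in 6.76% and 7.24%. The median GC content was 58.5% for member windows and 60.7% for those of tested genes. These shares describe letters in the windows and no binding was measured.

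**Figure D5:**
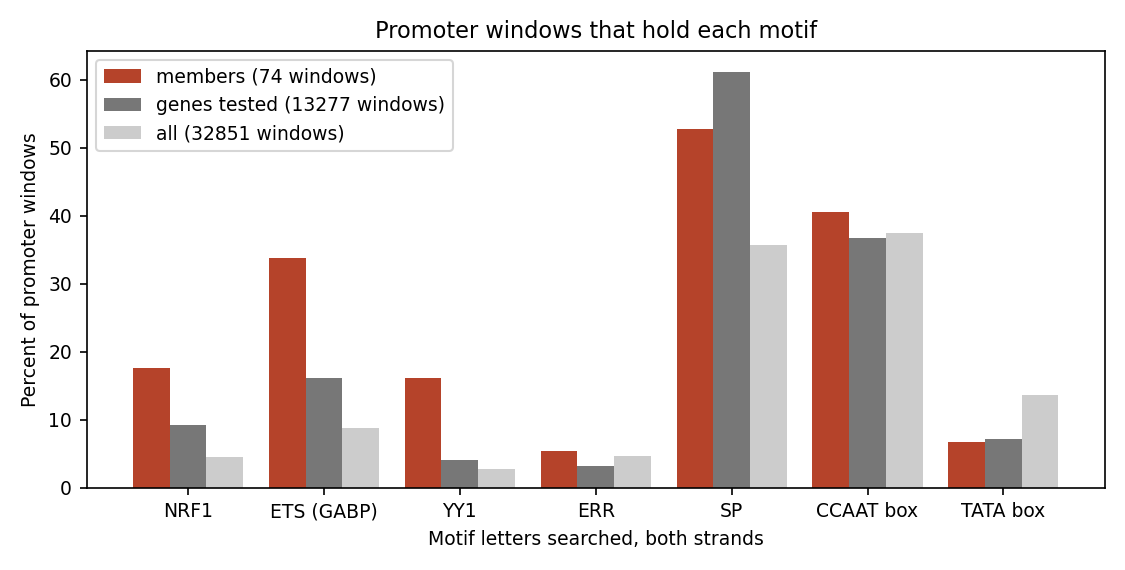
Percentage of promoter windows that hold each motif on either strand, for 74 windows of members, 13277 windows of tested genes and all 32851 windows. The member bars are above the others for NRF1, ETS, YY1, oestrogen-related receptors (ERR) and CCAAT, and below those of tested genes for SP and TATA.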

How the data were processed

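Total RNA of islets was extracted and sequenced as paired-end reads, per the labels' protocols. Reads were processed with HISAT2 2.0.5 and HTSeq on mm10, per the submitters' processing notes; the sources used here do not give the annotation, strand setting or HTSeq version. The deposited per-sample files hold raw read counts for 24421 gene symbols. Their 5 summary lines name no gene and were left out. In BKO and Cre libraries the averages were 9.90% and 9.41% for reads in no counted feature and 1.21% and 1.18% for ambiguous reads. They were 18.6% and 20.2% (27.3% in Cre-1) for reads of low alignment quality. For unaligned reads they were 2.43% and 2.47%, and for multiply placed reads 5.08% and 5.02%. A series-wide table with 12 per-sample columns was not used.

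Genes were tested with edgeR 4.0.16 in R 4.3.3 (filterByExpr, TMM, robust glmQLFit, glmQLFTest, Benjamini-Hochberg over all 13583 genes, threshold 0.05). Folds are BKO over Cre with the SE of the fit. The biological coefficient of variation was 11.7%. Counts for all 13583 genes were also simulated from these means, with 50 genes each given a change of 1.25, 1.5, 2 or 3-fold. The test found 26% of the 1.25-fold set, 82% of the 1.5-fold set and 90% of the 2-fold set. It wrongly called 6 genes. The real libraries gave 0 calls, and there the duct marker Onecut2, with a log2 fold change of 1.43, had an edgeR adjusted p of 0.121. The simulated rates hold for that planted setting and may overstate what the real test can find. Alternatives were RLE, upper-quartile and acinar-free TMM scaling, other count filters, no robust fit, and DESeq2 1.42.0. Further ones were limma-voom with quality weights (limma 3.58.1), a block for the replicate number, and a covariate for the acinar score. The last were 1 surrogate variable from sva 3.50.0, a threshold of 0.1, and each library left out. Chi-square per degree of freedom between replicates was 4.84 to 28.3, above counting noise alone, so no pair was treated as 1 library deposited again. Lengths, positions and overlaps come from GENCODE for GRCm38, which is mm10. The members and lists were chosen with earlier results of these data known. Named members are the 8 with the smallest p in each direction, the highest and lowest 3 levels per length of each subunit, and Mrpl12, Mrps18a, Mrps18b, Mrps18c, Mrps36 and Mrpl58 for known biology; lists give up to 2 genes with an unadjusted p under 0.05.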

Additional observations from a re-analysis of the deposited data

Results flagged for a closer look

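Mrps30 in BKO-5, at 32.9 CPM, stood apart from the other BKO libraries, which had 25.2 to 27.5 CPM. The gap to the nearest library was 0.697 of the range of the group. This was the 1 case among 64 groups of 6 libraries looked at. Chance gives such a library in about 1 of every 20 groups, so 1 case is not more than chance gives. Without BKO-5 the log2 fold change of Mrps30 was 0.040, against 0.11 with all libraries.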

How the results depend on the processing

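Over 23 alternatives, 12 of them leaving out a library, 0 members passed the adjusted test, and the smallest adjusted p was 0.194 (Mrps34 without Cre-1). Members at an unadjusted p under 0.05 numbered 4 with limma-voom (Mrpl19, Mrps31, Mrpl2 and Mrps34), 1 with the replicate number as a block (Mrpl52), each beside 16.2% of all genes, and 0 to 4 without a library, the 4 without Cre-1, beside 9.57% to 17.7% of all genes (17.1% without Cre-1). With the acinar covariate, 0 members stood beside 8.54% of all genes. With 1 surrogate variable, 0 members stood beside 679 of 13583 genes, so the contrast with all genes was smaller in these fits. Past the adjusted test, DESeq2 called 223 genes in all, the replicate block 364, and leaving out a library 0 to 262, with 262 without BKO-4, 110 without Cre-5, 6 without Cre-1 and 5 without BKO-3; the cause was not tested. Same-numbered libraries did not all deviate together (correlations of -0.072 to 0.264, 4 of 6 BKO libraries closest to their own number, a hint of pairing from the data), and the labels do not say what a number marks, so the fit without the block was kept. The median log2 fold change of members stayed between -0.0043 (without BKO-3) and 0.031, that of the large subunit between -0.0084 and 0.028 and that of the small subunit between -0.0014 and 0.032. Both subunit medians and the member median thus lie on either side of 0. Of 28 named members, 22 moved by over 1.5 times in at least 1 fit and 7 changed sign. With 1 surrogate variable, Mrpl10 was at -0.018, Mrpl47 at -0.028, Mrps12 at 0.052 and Mrps10 at -0.039; with the acinar covariate, Mrpl47 was at -0.035 and Mrps25 at -0.0028. Without a library, Mrps21 ranged from -0.0071 to 0.058, Mrps12 from -0.086 to 0.0063, Mrps33 from -0.056 to 0.066, Mrpl47 from -0.014 to 0.079 and Mrps10 from -0.0029 to 0.10. Depth limits Mrps6 most.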
